A study of Mus musculus with 7 samples.

Results

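Genes of the proteasome were examined in 2 stages of red cell formation, sorted from mouse fetal livers at E13.5. The members were chosen by name, as every gene of the expression table whose symbol starts with Psma, Psmb, Psmc, Psmd, Psme, Psmf or Psmg. They came to 43 of the 5194 genes in the table. This rule uses no measured value. All mice carried Klf1, the gene of the erythroid transcription factor EKLF, with a hemagglutinin tag, a short peptide by which an antibody can pull down the factor. Erythroblasts were the fetal liver cells sorted as Ter119+CD71+, and progenitors pooled the Ter119-CD71- and Ter119-CD71+ fractions, where Ter119 marks red cells as they mature and CD71 is the transferrin receptor. Per the labels, each population was sorted at least 3 times, from primary cells. The series held 7 samples, namely 2 of EKLF ChIP, 2 of input chromatin and 3 of RNA (2 from erythroblasts and 1 from progenitors). The deposited expression table has 1 column per stage and the peak files 1 pooled list per stage. No difference between stages has a replicate check, and no p-value is given.

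The proteasome is the cell's main protease for proteins tagged with ubiquitin. Its barrel-shaped 20S core is built from rings of alpha subunits (Psma genes), which gate the barrel, and of beta subunits (Psmb genes), of which Psmb5, Psmb6 and Psmb7 carry the constitutive cutting sites. A 19S cap on the core receives the substrate. The base of the cap holds a ring of ATPases (Psmc genes) that unfold the substrate, together with large scaffold subunits and a ubiquitin receptor, and the lid holds Psmd14, which removes the ubiquitin chain. Maturing red cells remodel their proteins and later discard their organelles, and they use the ubiquitin-proteasome system in doing so.

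Values are the authors' coverage signal, summed over the coding exons listed for a gene. The signal is not divided by exon length, so levels are compared between stages and not between genes. Sums over several genes weigh the longer and better covered ones more. A gene is said to have risen or fallen where it differed at least 2-fold between the stages after a pseudocount of 1 was added to both sums, that is, by at least 1 on the log2 scale. An exon is listed only where it reached 0.8 in each column, so exons that were low in either stage are missing and a strong change can be understated. Of 8 erythroblast markers 4 were listed and all 4 rose, with log2 differences of 2.74 to 7.32, and of 6 progenitor markers Myc and Runx1 were listed, at -2.44 and -0.68. No marker of hepatocytes, macrophages, granulocytes and mast cells, B cells, or endothelial and stromal cells was listed. Of 6 megakaryocyte markers 1 was listed, Gp1ba, with 31.6 in erythroblasts and 9.35 in progenitors. In sorted bulk samples, fewer cells of a type and less RNA per cell cannot be told apart.

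As a whole the proteasome genes moved little. Of the 43 genes 9 rose in erythroblasts (20.9%), against 15.3% of all genes in the table, and 4 fell (9.30%), against 13.2% of all genes. These shares are near those of the whole table. The median log2 difference of the members was 0.38, beside 0.03 over all genes, and 27 of the 43 were above 0. The members' range ran from -1.96 to 1.504, while all genes ran from -5.33 to 7.32. Summed over all members, the signal was 2181 in erythroblasts and 1771 in progenitors, a ratio of 1.23, and the same ratio over all genes was 1.07.

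**Figure D1:**
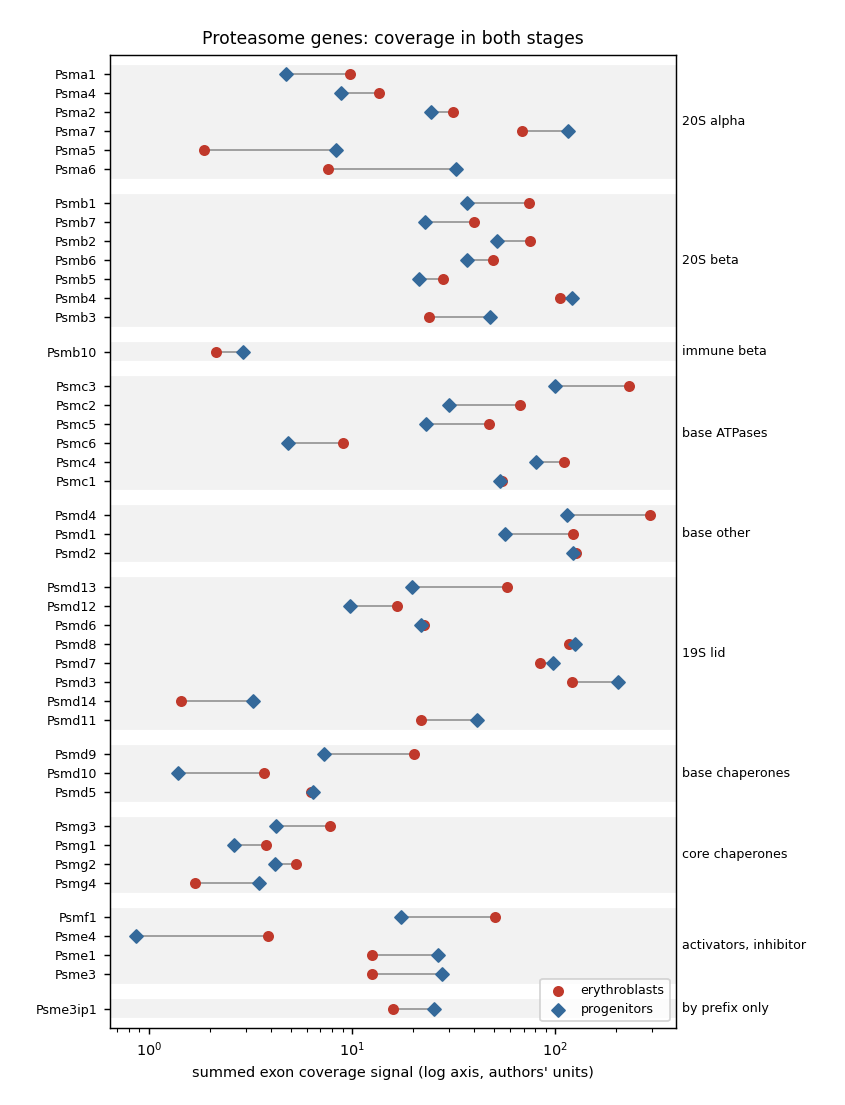
Summed exon coverage of each proteasome gene on a log axis in the authors' units, for erythroblasts (red circles) and progenitors (blue diamonds), grouped by role. Erythroblast circles lie to the right of the progenitor diamonds for the 9 Psmc and Psmd genes of the 19S base (8 with median-ratio scaling and 7 with totals equalised without globin genes) and to the left for Psma5 and Psma6, which fell.

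The values were then read by part of the particle. In the 19S base 5 of the 9 genes with these symbols rose and none of the 9 fell, with a median log2 difference of 1.003, while the base subunit gene Adrm1, outside the naming rule, fell to 40.1 in erythroblasts, against 115 in progenitors. All 9 base genes were above 0 as deposited, 8 with median-ratio scaling and by exon median, and 7 with totals equalised without globin genes. In the 19S lid 1 of the 8 genes with these symbols rose and 3 were above 0. Their median was -0.15, or 0.15 without the highest exon of each gene. The lid subunit gene Sem1, outside the naming rule, rose to 21.3 in erythroblasts, against 7.71 in progenitors. In the 20S core none of 13 listed genes rose, 2 fell, and the median was 0.38, or 0.02 without the highest exon of each gene. With a pseudocount of 0.1 instead, 2 core genes rose and 3 fell. The summed signal of the base was 1061 in erythroblasts and 586 in progenitors, a ratio of 1.81, whereas that of the core was 529 in erythroblasts and 534 in progenitors, a ratio of 0.99. Summed lid signal was 444 in erythroblasts and 521 in progenitors, a ratio of 0.85. Whether these groups differ beyond what single libraries would give was not tested.

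**Figure D2:**
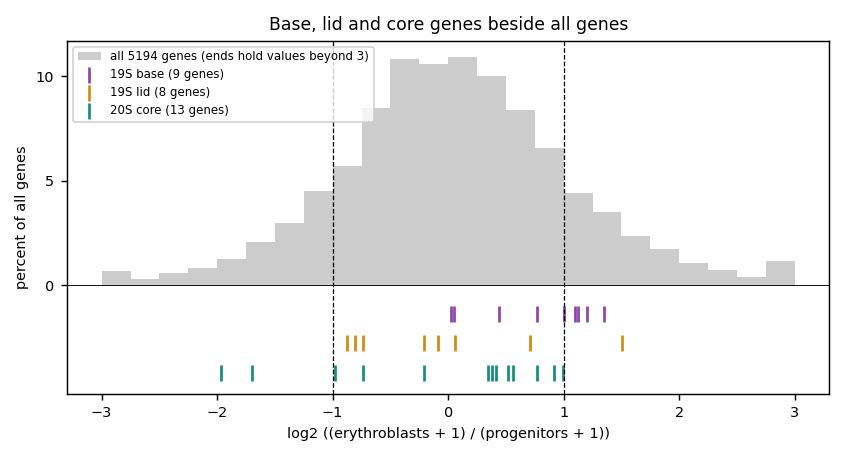
Grey bars give the percent of all 5194 genes in each bin of the log2 difference between erythroblasts and progenitors, and ticks below them give the single genes of the 19S base, the 19S lid and the 20S core. Dashed lines mark the 2-fold rule. The 9 Psmc and Psmd genes of the base lie above 0 (8 with median-ratio scaling and 7 with totals equalised without globin genes), the lid genes lie on both sides and the core genes reach from -1.96 to 0.99.

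Promoter sequences are shown for 7 members whose data are described below, so that their letters can be set beside the peaks and the changes. They were taken from RefSeq on build GRCm38.p6 and run from 250 bases before to 50 bases after the annotated start. Capitals mark every match, on either strand, to CCNCNCCC, a CACCC-like box of the kind EKLF and Sp factors recognise, and to TGACNNNGC or TGATNNNGC, cores of the antioxidant response element through which the factors Nfe2l1 and Nfe2l2 act on proteasome genes.
Psmc5, an ATPase that rose (chr11:106255935-106256234, forward strand): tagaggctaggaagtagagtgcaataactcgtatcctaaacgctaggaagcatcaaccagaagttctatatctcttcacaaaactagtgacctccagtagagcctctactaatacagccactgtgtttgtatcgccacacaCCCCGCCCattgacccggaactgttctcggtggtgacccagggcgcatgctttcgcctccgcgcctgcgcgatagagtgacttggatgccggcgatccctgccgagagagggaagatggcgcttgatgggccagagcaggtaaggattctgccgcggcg
Psmc6, an ATPase with an erythroblast peak at its 5'-most listed exon (chr14:45329574-45329873, forward strand): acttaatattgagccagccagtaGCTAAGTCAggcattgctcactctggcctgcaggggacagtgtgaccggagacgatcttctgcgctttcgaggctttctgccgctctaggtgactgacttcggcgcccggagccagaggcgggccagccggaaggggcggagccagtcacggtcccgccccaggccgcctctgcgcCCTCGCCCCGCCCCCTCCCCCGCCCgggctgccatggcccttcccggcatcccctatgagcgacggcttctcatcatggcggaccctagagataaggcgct
Psmd4, the ubiquitin receptor of the base, which rose (chr3:95042565-95042864, reverse strand): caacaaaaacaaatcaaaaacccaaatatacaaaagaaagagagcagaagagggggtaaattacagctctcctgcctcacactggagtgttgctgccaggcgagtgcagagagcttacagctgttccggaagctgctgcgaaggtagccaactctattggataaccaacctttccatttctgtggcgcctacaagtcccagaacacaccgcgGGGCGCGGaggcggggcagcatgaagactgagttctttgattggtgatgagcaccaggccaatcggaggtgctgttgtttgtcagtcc
Psmd12, the lid gene with the best-ranked erythroblast peak among the members (chr11:107479278-107479577, forward strand): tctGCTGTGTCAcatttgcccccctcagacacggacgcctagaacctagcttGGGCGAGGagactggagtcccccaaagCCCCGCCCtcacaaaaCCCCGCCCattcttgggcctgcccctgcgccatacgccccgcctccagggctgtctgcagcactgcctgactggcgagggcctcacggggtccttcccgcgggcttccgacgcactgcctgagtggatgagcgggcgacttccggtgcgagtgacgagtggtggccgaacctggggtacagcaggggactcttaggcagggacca
Psmd13, a lid gene that rose (chr7:140882144-140882443, forward strand): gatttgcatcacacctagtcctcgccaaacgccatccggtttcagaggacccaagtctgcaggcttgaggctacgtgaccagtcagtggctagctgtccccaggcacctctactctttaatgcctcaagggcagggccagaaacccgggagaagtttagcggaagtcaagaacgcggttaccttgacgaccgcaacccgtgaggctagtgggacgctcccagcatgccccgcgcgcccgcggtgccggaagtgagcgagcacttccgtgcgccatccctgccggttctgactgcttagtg
Psma6, an alpha gene that fell, at the downstream of its 2 annotated starts (chr12:55398575-55398874, forward strand): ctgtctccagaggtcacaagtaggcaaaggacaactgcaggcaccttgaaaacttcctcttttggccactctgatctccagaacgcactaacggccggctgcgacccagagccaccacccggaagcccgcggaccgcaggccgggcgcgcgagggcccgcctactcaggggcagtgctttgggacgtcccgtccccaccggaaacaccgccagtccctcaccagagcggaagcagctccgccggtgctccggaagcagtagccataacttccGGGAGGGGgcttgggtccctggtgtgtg
Psmb5, a catalytic beta gene with the antioxidant core (chr14:54617946-54618245, reverse strand): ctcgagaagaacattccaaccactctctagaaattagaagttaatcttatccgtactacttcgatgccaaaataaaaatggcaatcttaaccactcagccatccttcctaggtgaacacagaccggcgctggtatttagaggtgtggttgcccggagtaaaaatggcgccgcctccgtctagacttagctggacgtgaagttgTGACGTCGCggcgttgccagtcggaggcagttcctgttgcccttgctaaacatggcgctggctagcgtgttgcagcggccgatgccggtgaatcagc
RefSeq's table held a promoter for 36 of the 43 members, 39 promoters in all. CCNCNCCC was found in 20 of the 39 (51.3%), against 49.5% of all 32851 promoters of the same length. The stricter erythroid box CCACACCC, which is contained in CCNCNCCC, was found in 1 of the 39, that of Psmg1, and in 3.56% of all promoters. TGACNNNGC or TGATNNNGC was found in 7 of the 39 (17.9%), in Psmb5, Psmb6, Psmc6, Psmd9, Psmd12, Psme3ip1 and Psme4, against 19.6% of all promoters. The members' shares were thus near those of all promoters. Matches of CCNCNCCC overlap each other in runs of C, as in Psmc6 with 6 matches. These matches describe letters only, and the peaks, given on build mm9, were not placed on these GRCm38.p6 windows.

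Of the 6 ATPases of the base 3 rose by the rule, and of the others only Psmc1 changed sign under a scaling. Psmc3 (chromosome 2, listed exon starts 90894406 to 90899412 on build mm9) had 231 in erythroblasts and 100.1 in progenitors, a log2 difference of 1.20 (SD 0.53 over 12 exons). Every one of these exons was higher in erythroblasts, where they ranged over 7.41 to 42.5, against 2.27 to 21.0 in progenitors, and the gene stayed at 1.13 or more whichever exon was left out. Psmc2 had 66.8 in erythroblasts and 30.1 in progenitors, a log2 difference of 1.12. That rise rested on its 5'-most listed exon, which had 25.6 in erythroblasts and 2.98 in progenitors, and without that exon the difference was 0.58. Psmc5 had 47.1 in erythroblasts and 23.02 in progenitors, a log2 difference of 1.003 that lay just inside the rule, with all 9 listed exons higher. It was 0.97 with median-ratio scaling and 0.94 with totals equalised without globin genes, both outside it.

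The other ATPases stayed under 2-fold. Psmc6 had 9.00 in erythroblasts and 4.86 in progenitors over 3 listed exons, a log2 difference of 0.77. Psmc4 had 110.0 in erythroblasts and 80.8 in progenitors, a difference of 0.44 with 7 of 10 exons higher. Psmc1 was level, with 54.4 in erythroblasts and 53.7 in progenitors, a difference of 0.02 that turned to -0.01 with median-ratio scaling and to -0.04 with totals equalised without globin genes.

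Among the non-ATPase genes of the base 2 rose and 1 was level. Psmd4, which encodes the ubiquitin receptor Rpn10, had 294 in erythroblasts and 115 in progenitors, a log2 difference of 1.35 (SD 0.86 over 9 exons), and all 9 exons were higher. Its smallest value with any exon left out was 1.27. Psmd1, the scaffold Rpn2, had 122 in erythroblasts and 56.5 in progenitors, a difference of 1.10 (SD 1.24 over 14 exons). Its exons were unequal, since 11 of 14 were higher and the log2 ratios ran from -1.01 to 3.51, and with an exon left out the difference reached 0.97. Psmd2, the scaffold Rpn1 that docks ubiquitin-like shuttle proteins, had 127 in erythroblasts and 122 in progenitors, a difference of 0.05 with 8 of 18 exons higher. The median of its exon log2 ratios was -0.47, and the summed difference was -0.01 with totals equalised without globin genes, so Psmd2 has no settled direction.

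**Figure D3:**
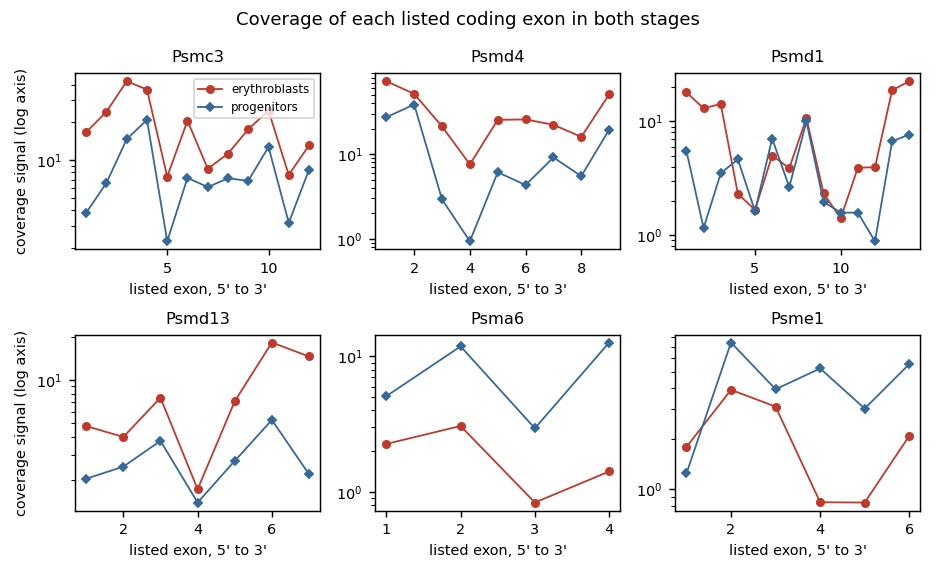
Coverage of each listed coding exon, in order from 5' to 3' on a log axis, in erythroblasts (red) and progenitors (blue) for 6 members. Every exon of Psmc3, Psmd4 and Psmd13 is higher in erythroblasts, every exon of Psma6 is lower, and the stages cross in Psmd1 and Psme1.

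The lid is a horseshoe of scaffold subunits around the deubiquitinase. Of its 8 genes with these symbols 1 passed 2-fold, Psmd13, and the lid subunit gene Sem1, outside the naming rule, rose too. Psmd13 (chromosome 7, listed exon starts 148075205 to 148084093 on build mm9) had 57.9 in erythroblasts and 19.8 in progenitors, a log2 difference of 1.504 (SD 0.79 over 7 exons). All 7 exons were higher, and the difference stayed at 1.25 or more without any single exon. It led the members with a pseudocount of 1, whereas with a pseudocount of 0.1 Psme4 stood at 2.04 and Psmd13 at 1.55, and by exon median Psme4, Psmf1 and Psmd4 lay above it. Psmd12 had 16.6 in erythroblasts and 9.73 in progenitors, a difference of 0.71 with 4 of 5 exons higher.

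Of the lid genes 3 were close to level. Psmd6 had 22.7 in erythroblasts and 21.8 in progenitors, a log2 difference of 0.06. Psmd8 had 117 in erythroblasts and 125 in progenitors, a difference of -0.09. Psmd7 had 84.5 in erythroblasts and 97.7 in progenitors, a difference of -0.21. Those of Psmd6 and Psmd7 changed sign with the exon median, to -0.10 and 0.10.

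The remaining lid genes were lower in erythroblasts without passing the rule. Psmd3 had 122 in erythroblasts and 203 in progenitors, a log2 difference of -0.73, and 11 of its 12 exons were lower. Psmd11, which promotes assembly of the 26S particle, had 21.9 in erythroblasts and 41.2 in progenitors, a difference of -0.88. Psmd14, the deubiquitinase itself, had 1.44 in erythroblasts and 3.28 in progenitors on 1 listed exon, a difference of -0.81. If a step of the signal is 1 base and reads are 51 bases long, these Psmd14 values stand for 60.8 reads in erythroblasts and 118 in progenitors, so its level is among the least well measured here.

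In the alpha ring of the core, Psma5 and Psma6 fell and the other listed genes stayed within 2-fold. Psma6 (chromosome 12, listed exon starts 56499904 to 56511115 on build mm9) had 7.61 in erythroblasts and 32.6 in progenitors, a log2 difference of -1.96 (SD 0.83 over 4 exons). Its 4 exons had 2.27, 3.07, 0.84 and 1.42 in erythroblasts and 5.10, 11.9, 2.96 and 12.7 in progenitors, all lower in erythroblasts. Psma5 had 1.88 in erythroblasts and 8.35 in progenitors, a difference of -1.70 on 2 listed exons. Both of its exons lay near the listing limit in erythroblasts, at 0.90 and 0.98, and with an exon left out the difference came to -0.98 at its weakest. Psma6 was the lower of the pair with a pseudocount of 1, and Psma5 by exon median, at -2.06 against -1.88 for Psma6.

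Of the other alpha genes, Psma7 was lower and the rest were higher in erythroblasts, none past the rule. Psma7 had 68.7 in erythroblasts and 115 in progenitors, a log2 difference of -0.74. Psma1 had 9.81 in erythroblasts and 4.73 in progenitors, a difference of 0.92 on 3 exons. Psma4 had 13.5 in erythroblasts and 8.87 in progenitors, a difference of 0.56 that came to -0.12 by exon median. Psma2 had 31.6 in erythroblasts and 24.6 in progenitors, a difference of 0.35. The median over the 6 alpha genes was -0.20, and it was 0.35 over the 5 with at least 3 listed exons, that is, without Psma5. Psma3, which completes the ring, and the testis form Psma8 had no listed exon and were not analysed here.

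No beta gene passed 2-fold in either direction. By summed signal the 3 catalytic genes were each somewhat higher in erythroblasts. Psmb5, the chymotrypsin-like site, had 28.0 in erythroblasts and 21.3 in progenitors, a log2 difference of 0.38. Of the 3 listed exons of Psmb5 2 were higher, and without its highest exon the difference was 0.02. Psmb6, the caspase-like site, had 49.4 in erythroblasts and 36.7 in progenitors, a difference of 0.42 with 5 of 6 exons higher. Psmb7, the trypsin-like site, had 40.0 in erythroblasts and 22.98 in progenitors, a difference of 0.77 with all 5 exons higher.

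The structural beta genes spread over the whole range between the limits of the rule. Psmb1 lay just outside it with 74.4 in erythroblasts and 36.9 in progenitors, a log2 difference of 0.99 with all 5 exons higher. Psmb3 lay just outside it on the other side, with 23.8 in erythroblasts and 47.8 in progenitors, a difference of -0.98 with all 3 exons lower, and fell past it with median-ratio scaling. These neighbours of the limit show that the counts of genes past 2-fold turn on small amounts. Psmb2 had 75.1 in erythroblasts and 52.0 in progenitors, a difference of 0.52. Psmb4 had 105 in erythroblasts and 122 in progenitors, a difference of -0.21.

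The immune beta subunits, which replace the catalytic ones in cells under interferon, were hardly represented. Psmb10 was the only listed member of this group, with 2.13 in erythroblasts and 2.92 in progenitors, a log2 difference of -0.32. It rested on 2 exons near the listing limit. Psmb8, Psmb9 and the thymus form Psmb11 had no listed exon and were not analysed here.

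Of the 3 chaperones of the base 1 rose. Psmd9, which helps assemble the ATPase ring, had 20.3 in erythroblasts and 7.30 in progenitors, a log2 difference of 1.36 with all 3 exons higher, and it kept at least 1.11 with any exon left out. Psmd10, known as gankyrin and also a base chaperone, had 3.69 in erythroblasts and 1.39 in progenitors on 1 listed exon, a difference of 0.97 just under the rule. Psmd5, the third base chaperone, had 6.30 in erythroblasts and 6.42 in progenitors, a difference of -0.02.

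The chaperones of the core stayed under 2-fold and were thinly covered. Psmg1 had 3.77 in erythroblasts and 2.62 in progenitors on 1 exon, and Psmg2, its partner, had 5.28 in erythroblasts and 4.20 in progenitors on 2. Psmg3 had 7.81 in erythroblasts and 4.21 in progenitors, a log2 difference of 0.76, while its partner Psmg4 had 1.69 in erythroblasts and 3.47 in progenitors on 1 exon, a difference of -0.74.

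The 4 listed regulators that bind the core all passed 2-fold, 2 in each direction. Of all genes 15.3% rose and 13.2% fell. With a pseudocount of 5 only Psmf1 stayed past the rule, at 1.31. Under that setting Psme4 stood at 0.59, Psme1 at -0.84 and Psme3 at -0.90. Psmf1, the core-binding protein PI31, described both as an inhibitor and as an aid to assembly, had 50.7 in erythroblasts and 17.5 in progenitors, a log2 difference of 1.48 (SD 0.53 over 5 exons). All 5 exons were higher, and the difference was 1.06 or more without any exon. Psme4, the activator PA200, had 3.85 in erythroblasts and 0.86 in progenitors, a difference of 1.38 on 1 listed exon whose progenitor value stood near the listing limit, equal to 31.0 reads if a step is 1 base.

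The PA28 activators fell. Psme1, the alpha chain of the interferon-inducible PA28, had 12.5 in erythroblasts and 26.4 in progenitors, a log2 difference of -1.02 with 5 of 6 exons lower, just inside the rule. With an exon left out the difference of Psme1 came to -0.81 at its weakest. Psme3, the nuclear PA28 gamma, had 12.6 in erythroblasts and 27.8 in progenitors, a difference of -1.09 with 5 of 6 exons lower. The fall of Psme3 rested on its exon with 4.22 in erythroblasts and 16.7 in progenitors, without which the difference was -0.37. Psme3ip1, a protein that binds PA28 gamma and is taken in by its name, is not a subunit, and it had 15.9 in erythroblasts and 25.3 in progenitors, a difference of -0.64. Psme2, the partner of Psme1, had no listed exon and was not analysed here.

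**Figure D4:**
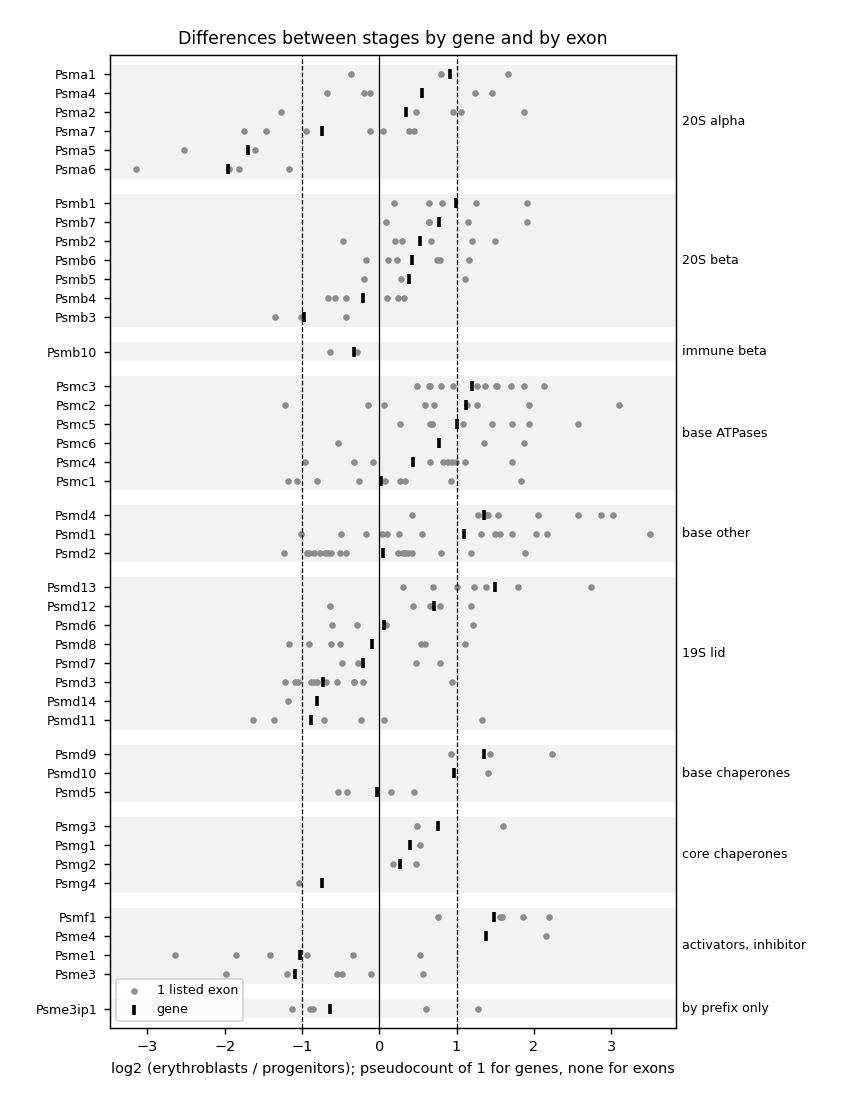
Log2 ratio of erythroblasts over progenitors for every listed exon (grey points, no pseudocount) and for the summed gene (black ticks, pseudocount of 1), with dashed lines at the 2-fold rule. The exons of a gene scatter widely, as in Psmc2 and Psmd1, and all exons lie on the same side of 0 in Psmc3, Psmd4, Psmd13, Psmf1 and Psma6.

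Agreement among the exons of a gene was counted. Of 34 members with at least 3 listed exons, 8 had all exons higher in erythroblasts, against 23.3% of the 2746 genes of the table with that many exons, and 2 had all exons lower, against 15.4%. The 8 were Psmb1, Psmb7, Psmc3, Psmc5, Psmd4, Psmd9, Psmd13 and Psmf1, and the 2 were Psma6 and Psmb3. Of the 93 listed exons of base genes 75.3% were higher in erythroblasts, of the 46 lid exons 45.7%, and of all 22365 exons 53.4%. Among the 29 members with at least 4 exons, the median log2 ratio of the later exons minus that of the earlier exons had a median of -0.17, and 12 of the 29 were above 0. Over 2118 genes of the table that median was -0.05. Whether coverage along the transcript bears on these differences was not tested. The annotation also holds 6 pseudogenes with these symbols, and the sources used here do not say how reads shared with such copies were counted.

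Partners of the proteasome outside this naming were looked up in a list of 28 genes, of which 21 were listed. Bag6, a chaperone of misfolded proteins, had 208 in erythroblasts and 279 in progenitors. By the 2-fold rule 3 rose, 4 fell and 14 did neither, and the median log2 difference was -0.08. Sem1, a small lid subunit, had 21.3 in erythroblasts and 7.71 in progenitors, a difference of 1.36. Adrm1, the ubiquitin receptor Rpn13 of the base, had 40.1 in erythroblasts and 115 in progenitors, a difference of -1.498, opposite in sign to that of the receptor gene Psmd4. Of the shuttle genes that carry ubiquitinated proteins to the cap, Ubqln4 fell to 22.8 in erythroblasts, against 118 in progenitors, and Rad23b fell to 68.2 in erythroblasts, against 183 in progenitors.

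The transcription factors that act on proteasome genes did not move alike. Nfe2l2 had 54.9 in erythroblasts and 25.6 in progenitors, a log2 difference of 1.07. Nfe2l1 had 17.4 in erythroblasts and 31.3 in progenitors, a difference of -0.81 under the rule with all 3 listed exons lower. Hsf1, the heat shock factor, had 10.001 in erythroblasts and 30.7 in progenitors, a difference of -1.53. Ufd1, a cofactor of the unfolding enzyme Vcp, had 13.9 in erythroblasts and 5.04 in progenitors, a difference of 1.30, and Vcp itself had 46.2 in erythroblasts and 52.6 in progenitors. Pomp, the maturation protein of the core, had 19.2 in erythroblasts and 15.9 in progenitors, a difference of 0.26.

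Of the genes that supply ubiquitin, Ubb and Uba1 stayed within 2-fold. Ubb, a polyubiquitin gene, had 4033 in erythroblasts and 4086 in progenitors. Uba1, the main ubiquitin-activating enzyme, had 350 in erythroblasts and 402 in progenitors over 25 exons. Of 11 antigen presentation genes 4 were listed. None of the 4 rose, against 15.3% of all genes, and 2 fell, against 13.2%. These were Calr, with 119 in erythroblasts and 275 in progenitors, and H2-D1, with 12.2 in erythroblasts and 25.5 in progenitors, while B2m had 74.2 in erythroblasts and 73.8 in progenitors.

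EKLF peaks were then examined at the same genes. A gene was given a peak of a stage where that stage's list had one over the span of its listed exons or up to 5 kb to either side. Only coding exons are listed, so a peak at a start farther than 5 kb from them is not counted. By this count 25 of the 43 members had an erythroblast peak, against 46.5% of all genes, and 16 had a progenitor peak, against 30.9%. In 12 members there were peaks in both lists (27.1% of all genes), in 13 in erythroblasts alone (19.4%), in 4 in progenitors alone (3.79%) and in 14 in neither (49.7%). The lists differ in length, 19353 peaks in erythroblasts and 7358 in progenitors. With equal numbers of highest-ranked peaks the order turned, with 5 members in erythroblasts alone and 10 in progenitors alone. It turned over all genes as well, with 6.8% in erythroblasts alone and 13.3% in progenitors alone. The authors' fold enrichment of the 28 erythroblast peaks at members ran from 5.41 to 24.0 with a median of 12.0, beside 11.3 for all erythroblast peaks at genes of the table. The 17 progenitor peaks ran from 3.65 to 16.5 with a median of 6.96, beside 7.70. These enrichments come from the authors' lists and are not compared between lists. Ranked by the authors' -log10 p instead of enrichment, the best member peak stood at 2083 of 19353 in erythroblasts and at 582 of 7358 in progenitors.

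Most of these peaks sat at the 5' side. The centre of 21 of the 28 erythroblast peaks and of 12 of the 17 progenitor peaks lay within 2 kb of the 5'-most listed exon start, and 17 and 9 peaks covered that start. These positions were not counted over all genes, so they are not read as a trait of the members. The window of 5 kb also keeps peaks close to genes with short spans. The best-ranked erythroblast peak, at Psmd12, lay on chromosome 11 from 107339627 to 107341953 (build mm9) with an enrichment of 21.5, and it covered the 5'-most listed exon start. It overlapped a progenitor peak from 107339804 to 107341165 with an enrichment of 7.51. The best-ranked progenitor peak, at Psmd5, lay on chromosome 2 from 34725811 to 34726960 with an enrichment of 16.5, and overlapped an erythroblast peak from 34725993 to 34727231. Neither gene passed 2-fold.

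**Figure D5:**
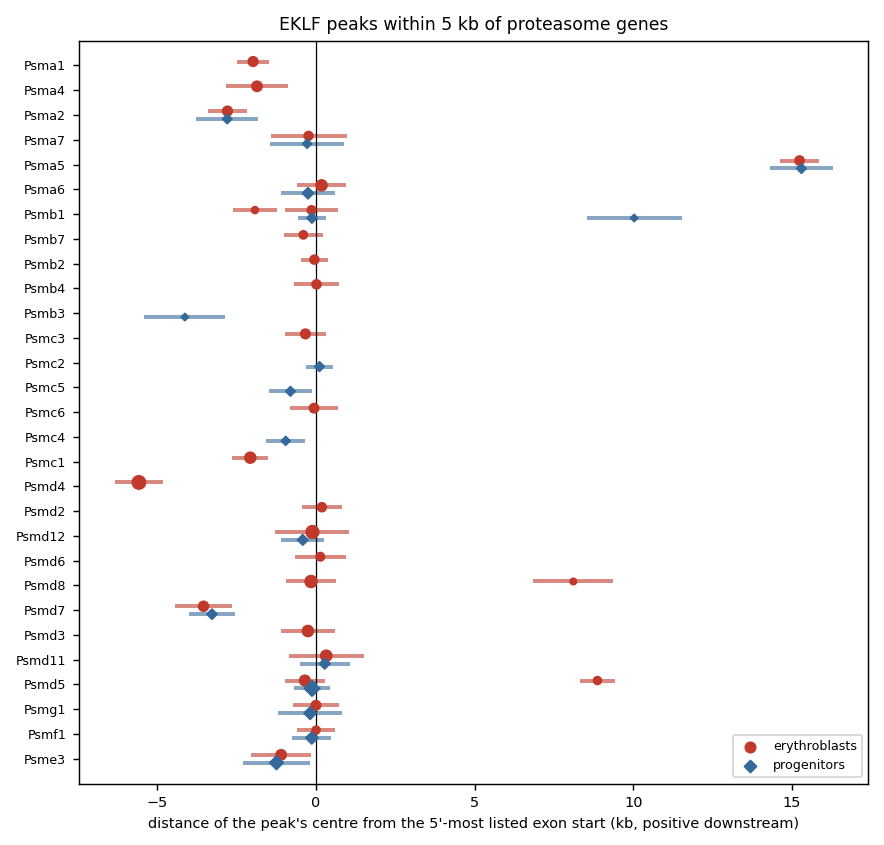
Position of EKLF peaks at the 29 members that have any, as the distance in kb of the peak centre from the 5'-most listed exon start, with bars for peak width and marker area for the authors' enrichment, in erythroblasts (red circles) and progenitors (blue diamonds). Most markers lie near 0, and those of Psma5 lie 15.2 and 15.3 kb downstream.

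Peak classes were mixed among the genes that changed. Of the 9 genes that rose, 2 had an erythroblast peak alone (Psmc3 and Psmd4) and 2 a progenitor peak alone (Psmc2 and Psmc5). By the same count 1 had both (Psmf1) and 4 had none within 5 kb of their listed exons (Psmd1, Psmd9, Psmd13 and Psme4). At Psmc3 the erythroblast peak, on chromosome 2 from 90893436 to 90894732 with an enrichment of 12.1, covered the 5'-most listed exon start. The peak of Psmd4, on chromosome 3 from 94845330 to 94846855, had the highest enrichment among the erythroblast peaks of the members, 24.0. It lay 4.80 kb outside the listed exons on their 5' side, which is also the side of the annotated neighbour Pip5k1a. The annotated start of Psmd4 was not placed on build mm9, so whether the peak covers that start was not tested. At Psmf1 the erythroblast peak from 151566145 to 151567323 and the progenitor peak from 151566261 to 151567482 on chromosome 2 overlapped each other. For the genes without a peak, distances were taken from their listed exons. The nearest erythroblast peak was 6.40 kb from those of Psmd13, 13.2 kb from those of Psmd1 and 16.1 kb from those of Psmd9. It was 46.6 kb from the only listed exon of Psme4. The annotated starts of these genes were not placed on build mm9, so whether a peak covers a start was not tested.

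Of the 4 genes that fell, Psma5, Psma6 and Psme3 had peaks in both lists, and Psme1 had none. At Psma6 the erythroblast peak, on chromosome 12 from 56499316 to 56500862 with an enrichment of 16.1, and the progenitor peak, from 56498809 to 56500515 with 8.54, both covered the 5'-most listed exon start. Those of Psma5 lay beyond the last listed exon by 3.70 kb in erythroblasts and 3.40 kb in progenitors, toward the annotated neighbour Sort1. Those of Psme3 lay just upstream, 0.14 kb from the listed exons in erythroblasts and 0.17 kb in progenitors.

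Within 5 kb the 6 ATPase genes divided evenly between the stages, and none had peaks in both lists, against 27.1% of all genes. Psmc3, Psmc6 and Psmc1 had a peak in erythroblasts alone, and Psmc2, Psmc4 and Psmc5 in progenitors alone. The progenitor peak of Psmc2 lay on chromosome 5 from 21292193 to 21293065 with an enrichment of 6.42. That of Psmc5 lay on chromosome 11 from 106116691 to 106118047 with 6.26, where Ftsj3 is the annotated neighbour on the 5' side. That of Psmc4 lay on chromosome 7 from 28834462 to 28835675 with 5.37. All were weak, at ranks 6766, 5991 and 6498 of 7358. They left the class when only the higher-ranked peaks of each list were used. Psmb3 was the remaining member with a progenitor peak alone, 2.85 kb outside its listed exons with an enrichment of 3.65. The other members with an erythroblast peak alone were Psma1, Psma4, Psmb2, Psmb4, Psmb7, Psmd2, Psmd3, Psmd4, Psmd6 and Psmd8.

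Expression and peak class were set side by side as a description. The median log2 difference was 0.52 in the 13 members with an erythroblast peak alone, 0.72 in the 4 with a progenitor peak alone, -0.12 in the 12 with both and 0.40 in the 14 with neither. Over all genes these medians were 0.08, -0.01, 0.03 and 0.01. A window of 5 kb holds neighbours too, as 10 of the 43 members had another listed gene within 10 kb, so a peak counted here need not belong to the proteasome gene.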

How the data were processed

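Per the labels' protocols, RNA was sequenced as paired reads of 51 bp and input chromatin served as the background control. Build mm9 comes from the submitters' processing notes, and no source used here names the aligner, counter or peak caller. The deposited expression file is named RPKM, but 100% of its values were within 0.01 of a whole multiple of 1 step per column (2151 steps per unit in erythroblasts, 1835 in progenitors), so the authors' values are read as a coverage signal. Column sums were 333353 in erythroblasts and 312559 in progenitors. Whether the erythroblast column pools both libraries is not given, so no SD or n is printed.

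The deposited peak lists, pooled per stage, have no header. From their values, the authors' fold enrichment was taken from column 7 and their -log10 p, which gave the ranks, from column 8.

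Of 6853 transcripts 6772 matched a symbol in RefSeq (GRCm38.p6). Exons of the transcript with most listed exons were summed, and genes with at least 1 in either column kept. Counts of called genes were read against all 5194 genes. SDs over exons are no replicate error. The planned fit per library could not be made. Named genes were all members, plus for each other list those past 2-fold (at most 4) and 1 or 2 of those with the highest summed signal, applied in part. Sem1, Ufd1, Nfe2l2, Nfe2l1, Vcp and Pomp were named after their values were seen. Some genes of these lists are not reported here. Steps were tested on simulated data. Members and lists were chosen with earlier results of these data known. Python 3.11.15, pandas 2.3.3, numpy 2.4.6 and matplotlib 3.10.9 were used.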

Additional observations from a re-analysis of the deposited data

How the results depend on the processing

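The count of 9 members that rose ranged from 7 (pseudocount of 5) to 12 (pseudocount of 0.1) over the alternatives of pseudocount, filter, scaling and exon summary. Over all genes the share that rose moved too, to 9.86% and 18.1% under those 2 settings. The count of 4 that fell was 7 with a pseudocount of 0.1 (15.6% of all genes) and 1 with a pseudocount of 5 (7.91%). It was 2 without the highest exon of each gene (9.63% of the genes left). By exon median 10 rose (19.2% of all genes) and 6 fell (14.6%), and 7 of the 10 were among the 9. In an alternative chosen after seeing the data, 5 rises (Psmc3, Psmd4, Psmd9, Psmd13 and Psmf1) and 1 fall (Psma6) held whichever exon was left out. The median log2 difference of 0.38 was 0.20 without the highest exon. All genes of the table shifted by less than 0.1 in median under each scaling. Of the base genes with these symbols (9, or 8 with at least 10 in the higher column) 4 or 5 rose and none fell under each alternative of pseudocount, filter, scaling and exon summary. For peaks, the share of all genes under the same setting is given in brackets after each count. Members with an erythroblast peak (25) were 38 within 50 kb (88.1%), 15 with the higher-ranked part of each list (29.4%) and 11 with lists of equal length (24.4%). Those with a progenitor peak (16) were 29 within 50 kb (70.1%) and 7 with the higher-ranked peaks (18.5%). Peaks in erythroblasts alone (13) were 5 with equal lists (6.8%). Peaks in progenitors alone (4) were 2 within 50 kb (2.54%), 2 with the higher-ranked peaks (4.35%) and 10 with equal lists (13.3%). The 2 with the higher-ranked peaks were not among the 4. They were Psmd7 and Psmf1, whose erythroblast peaks, at ranks 10350 and 13081, dropped out. Causes of these shifts beyond the number of exons or peaks used were not tested. No paired analysis was possible because the table has 1 column per stage, and for the same reason no replicate was left out. Depth limits the 9 members with 1 or 2 listed exons.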

Other observations

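Other multi-subunit complexes, taken from lists chosen with earlier results of these data known, gave the following values. The COP9 signalosome and the translation factor eIF3 share the architecture of the proteasome lid. All 9 signalosome genes were listed, with a median log2 difference of 0.41. None rose, against 15.3% of all genes, and 3 fell, against 13.2%. Cops7a fell to 14.4 in erythroblasts, against 37.5 in progenitors, Gps1 to 1.87 in erythroblasts, against 6.57 in progenitors, and Cops3 to 14.1 in erythroblasts, against 30.1 in progenitors. Of 14 eIF3 genes 12 were listed, with a median of -0.28. Of the 12, 1 rose and none fell, beside the same shares of all genes. The one that rose was Eif3a, the largest eIF3 subunit, with 508 in erythroblasts and 180 in progenitors. The 8 genes of the cytosolic chaperonin CCT all stayed within 2-fold, with a median of -0.16 and a range of -0.87 to 0.64.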
